A study of Mus musculus with 8 samples.

Results

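The DEAD-box and DEAH-box RNA helicases are described here as the 50 protein-coding genes of the table whose symbol is Ddx or Dhx followed by a digit, without Ddx6, Ddx58 and Dhx58. They were picked by a rule on names, from 46073 genes in all, of which 21518 are protein-coding, and 35 carry a Ddx and 15 a Dhx symbol. The rule, the groups by role and the lists used below were set with earlier results of these data known. Their counts are therefore descriptions and not tests. The question was whether any of these relatives of Ddx6 moved with the loss of Ddx6 or with adipogenic induction. RNA was sequenced from 3T3-L1 cells, a mouse line of preadipocytes derived from Swiss albino mice that turns into adipocytes under a cocktail of IBMX, dexamethasone and insulin. A total of 8 libraries fell into 4 groups of 2. The TOM groups were mock transfectants that received Cas9 and a guide against tdTomato, and the Ddx6-KO groups received Cas9 and a guide against exon 4 of Ddx6, each taken at day 0 and at day 2 of induction. Both lines went through lentiviral transduction, puromycin selection and single-cell limiting dilution, so a line may stand for 1 clone. Whether both libraries of each group were grown apart is not stated, so the p-values refer to a spread between libraries that may be technical. The treatment note of the labels gives a day 2 harvest for every sample, and the day was taken from the sample titles.

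RNA helicases use ATP to open short duplexes or to strip proteins from RNA, and their names come from the amino acids of a motif that binds and splits ATP. DEAD-box proteins clamp an RNA and bend it locally, whereas DEAH-box proteins travel along the strand from its 3′ end. Most members act in the nucleus, at the spliceosome or in the nucleolus, where ribosomal RNA is cut and folded, and others act in mRNA export, translation or the sensing of viral RNA. Ddx6 itself works in the cytoplasm in P-bodies, granules in which mRNA is stored and degraded.

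The targeted gene did not mark the labels at the RNA level. Ddx6 was at 11.3 and 19.9 FPKM (fragments scaled to gene length and library size) in TOM at day 0 and at 28.8 and 28.4 at day 2, against 27.2 and 31.9 in the day 0 libraries labelled Ddx6-KO and 50.001 and 43.0 in those of day 2, so no library labelled Ddx6-KO fell below a TOM library of the same day. Protein was not measured in these data, so every direction given for those libraries is given by label. The spacing of the lowest values gave about 1500000 to 21200000 assigned fragments per library, with the lowest in day 2 library 1 labelled Ddx6-KO and the highest in TOM day 0 library 1. The predicted genes Gm10800 and Gm10801 held 6.2% to 50.8% of all protein-coding FPKM, most in library 2 of the group labelled Ddx6-KO at day 2. With these left out, the helicases held 0.27% to 0.429% of protein-coding FPKM. Preadipocyte and mesenchymal markers summed to 601.5 to 1496 FPKM, carried mostly by Col1a1, Col1a2 and Dlk1 in TOM. Of these 7 markers, Thy1, Dlk1, Ly6a and Pdgfra were called lower and Pdgfrb higher between the lines at day 0. Thy1 was at 4.64 to 10.6 FPKM in TOM and stayed at 0.333 to 0.499 FPKM in the line labelled Ddx6-KO. The 4 epithelial markers stayed under 1 FPKM. Macrophage markers summed to 1.15 to 3.93 FPKM, with Adgre1, Csf1r and Lyz2 under 1 FPKM in all libraries. Endothelial markers summed to 0.512 to 5.06 FPKM, and Pecam1 among them was called higher in the libraries labelled Ddx6-KO at day 2 (log2 difference 1.48). Fewer cells of a type and less RNA per cell cannot be told apart in such bulk samples.

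Nearly all of the family was expressed. Of the 50 genes, 8 had a mean above 20 FPKM, 28 lay between 5 and 20 FPKM, 10 between 1 and 5 FPKM and 4 under 1 FPKM. Ddx3x, a helicase of translation initiation, was the highest with a mean of 92.5 FPKM over the libraries, followed by Ddx5 (88.9 FPKM), a factor of splicing and transcription, and Ddx39b, which loads export factors onto spliced mRNA. The lowest were 3 genes that stayed under 1 FPKM in all 8 libraries. Ddx25, a testis helicase, reached 0.406 FPKM and Ddx43, also known from germ cells, reached 0.135 FPKM, while Ddx3y, the Y-linked partner of Ddx3x, was listed at 0 throughout. These 3 did not pass the filter of at least 1 FPKM in at least 2 libraries, and 47 members were tested among 15811 genes. The highest library exceeded the lowest by a median of 2.24 times, by at most 2 times in 19 of the tested members and by over 5 times in 5. The 5 were Ddx60, Ddx4, Dhx37, Ddx51 and Ddx21.

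Likeness to Ddx6 was read from an alignment of each translated coding sequence with the 483 residues of Ddx6. The 5 best scores belonged to Ddx39 (35.6% identical residues), an mRNA export helicase, Ddx39b (33.8%), Ddx20 (33.8%), which sits in the SMN complex that assembles spliceosomal particles, Ddx47 (32.6%), a nucleolar helicase, and Ddx25 (36.1%). Only the members were aligned, so helicases with other names, such as Eif4a2, have no place in this ranking. Of these 5, Ddx25 was not tested, and Ddx39b alone passed the threshold in any comparison. Ddx39 was at 9.66 and 6.33 FPKM in TOM at day 0, at 5.80 and 10.5 at day 2, and at 9.02, 6.08, 6.51 and 8.04 in the libraries labelled Ddx6-KO. Its groups overlapped at both days, with a log2 difference between the lines of -0.07 at day 0 (95% interval -0.83 to 0.69) and -0.10 at day 2 (-0.86 to 0.66). Of its 5155 exon bases, 895 are shared with Adgre5 on the opposite strand. The strand setting of the FPKM step is not given, so this pair cannot be told apart. Ddx20 and Ddx47 had intervals of -0.34 to 0.59 and -0.67 to 0.22 at day 0, and of -0.34 to 0.59 and -0.51 to 0.38 at day 2. Each of these intervals reached less than 1 log2 unit either way.

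Differences were tested with limma on log2(FPKM + 1) over all 15811 genes, with Benjamini-Hochberg adjusted p under 0.05 as the threshold, and every log2 difference below is on that scale. In TOM cells from day 0 to day 2, 3 members rose and 1 fell, which is 8.51% of the 47 beside 7.15% of all genes (3.4% higher and 3.74% lower). Ddx51, Ddx21 and Ddx3x rose and Ddx60 fell. The median change of the members was 0.19 beside 0.03 over all genes, and 19 members (40.4%) had both day 2 libraries above both day 0 libraries, beside 25.5% of all genes. Under TPM rescaling the median of the members was 0.04 (24 above 0 and 23 below) and that of all genes -0.14, and with the protein-coding sum they were 0.34 and 0.16. With the filter set at 5 FPKM they were 0.17 and 0.08. The count of calls was 1 when TOM day 0 library 1 or library 2 of TOM day 2 was left out, and 2 when either of the other TOM libraries or either day 0 library labelled Ddx6-KO was. Under TPM, median-ratio or quantile scaling 1 member rose and 1 fell.

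In the libraries labelled Ddx6-KO, 4 members rose from day 0 to day 2 and none fell, again 8.51% beside 10.7% of all genes (4.8% higher). These were Ddx5, Ddx39b, Ddx51 and Ddx55. At an unadjusted p under 0.05 limma counted 8 members higher and 3 lower, beside 2122 higher and 1940 lower of the 15811 genes. In 19 members (40.4%) both day 2 libraries lay above both day 0 libraries, beside 30.9% of all genes. This direction depended on the scaling. Median-ratio scaling gave 4 that rose and none that fell, and quantile scaling 3 and none. TPM rescaling moved the median of all genes from 0.09 to -0.19 and that of the members from 0.14 to -0.19, and there 4 members fell and none rose, while scaling to the protein-coding sum gave 1 that fell and none that rose. Without either day 0 library of this line the count was 0, without day 2 library 1 it was 1, and it was 2 without any other library.

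Between the lines at day 0, 5 members were lower in the libraries labelled Ddx6-KO and none was higher (1 at an unadjusted p under 0.05). This is 10.6% of the members beside 11.4% of all genes, and the lower calls alone are 10.6% beside 4.81%. They were Ddx60, Ddx39b, Ddx24, Ddx21 and Ddx51. The median of the members was -0.23 beside 0.05 over all genes, and -0.23 beside 0.03 with the filter set at 5 FPKM. In 24 members (51.1%) both libraries labelled Ddx6-KO lay below both TOM libraries, beside 25.6% of all genes. The count was 2 without TOM day 0 library 1 or either day 0 library labelled Ddx6-KO, and 3 without TOM day 0 library 2.

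The count of calls was highest between the lines at day 2. A total of 12 members were lower and 1 was higher in the libraries labelled Ddx6-KO, or 27.7% beside 18.9% of all genes and 20.5% of the protein-coding genes, and the lower calls alone are 25.5% beside 8.58% of all genes and 9.42% of the protein-coding genes (10.4% of all genes were higher). The 12 lower calls were of genes with a Ddx symbol (32 tested), and Dhx57 was the higher one. Of the 15 Dhx symbols, Dhx37, a nucleolar helicase, came nearest to a lower call, with 5.48 and 8.63 FPKM in TOM against 2.50 and 2.90 (log2 difference -1.10, standard error 0.34, adjusted p = 0.0638). Whether Ddx and Dhx genes differ was not tested. The median of the members was -0.26 beside 0.11 over all genes, and 19 (40.4%) did not overlap on the lower side, beside 24.9% of all genes. With the filter set at 5 FPKM the medians were closer, at -0.21 for the members and -0.04 for all genes. Scaling to the protein-coding sum moved the median of all genes to -0.36 and that of the members to -0.78, with 18 called lower and none higher. By a ratio of mean FPKM of at least 2 or at most 0.5, without a test, 8 of the 47 tested members passed, 7 lower and 1 higher. Of all genes 34.8% passed by this rule, 10.9% lower and 23.9% higher. Leaving out any 1 of 6 libraries lowered the count by more than 1.5 times, to 4 without TOM day 2 library 1 or day 2 library 1 labelled Ddx6-KO, 5 without TOM day 2 library 2, and 7 without day 2 library 2 or either day 0 library labelled Ddx6-KO.

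Of 26 calls over these comparisons, 4 held under every alternative that was run. They were Ddx60 between the lines at day 0 and Ddx21, Ddx50 and Ddx51 between the lines at day 2. In all, 16 members were called at least once and 31 never. The share of all genes called at least once was not counted, nor was the share of their calls that held under every alternative.

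**Figure D1:**
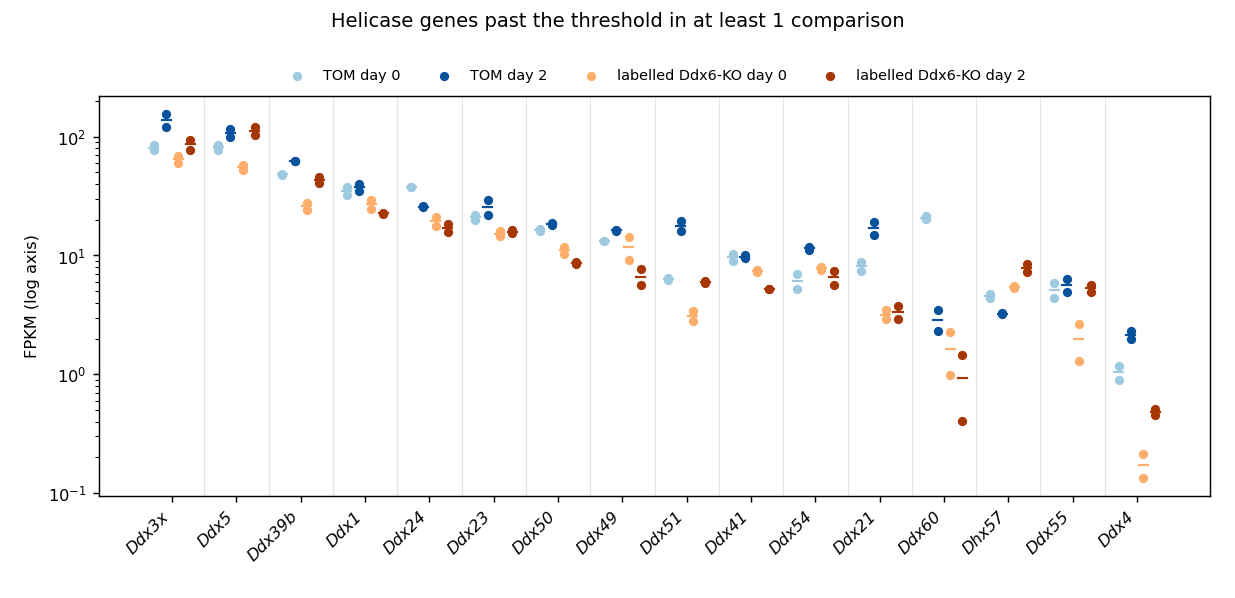
FPKM on a log axis of the 16 helicase genes past the threshold in at least 1 comparison, ordered by mean level. Each point is 1 library and each bar the mean of the 2 libraries of a group. Ddx21 and Ddx51 lie lower in the libraries labelled Ddx6-KO than in TOM at both days, Ddx60 is high only in TOM at day 0, and Dhx57 is highest in the libraries labelled Ddx6-KO at day 2.

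The 16 helicases of ribosome biogenesis, which process and fold ribosomal RNA in the nucleolus, had 6 members called lower at day 2, beside 8.58% of all genes, and all 16 had a log2 difference below 0, beside 6798 of the 15811 genes. The 6 calls became 3 without TOM day 2 library 1 or 2, or day 2 library 1 labelled Ddx6-KO. Their median was -0.49, beside 0.11 over all genes, and none was above 0 under any of the scalings tried. With the filter set at 5 FPKM the medians were -0.455 and -0.04. Of the 16 helicases, between 13 and 16 were below 0 when 1 library was left out, with 13 without TOM day 2 library 1 or without day 2 library 2 labelled Ddx6-KO. At day 0, 12 were below 0, beside 7255 of all genes, 3 were called lower, beside 4.81% of all genes, and the median was -0.34. These 3 calls became 0 without TOM day 0 library 1 or day 0 library 2 labelled Ddx6-KO, and 1 without either of the other day 0 libraries. Over induction in TOM, 13 had a change above 0, beside 8278 of all genes, and 2 were called higher, beside 3.4% of all genes.

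Ddx21, which binds ribosomal DNA and RNA and promotes their transcription and processing, showed the largest difference between the lines at day 2 among the tested members. It was at 7.40 and 8.80 FPKM in TOM at day 0 and at 19.2 and 14.8 at day 2, against 2.90 and 3.45 and then 2.93 and 3.78 in the libraries labelled Ddx6-KO. No library labelled Ddx6-KO reached the lowest TOM library. The log2 difference was -1.12 at day 0 (standard error 0.22, limma adjusted p = 0.0188) and -2.04 at day 2 (standard error 0.22, adjusted p = 0.00164), where mean FPKM in TOM was 5.06 times that of the libraries labelled Ddx6-KO. Over induction it rose by 0.97 in TOM (standard error 0.22, adjusted p = 0.0402), and its change in the line labelled Ddx6-KO was 0.06 (95% interval -0.45 to 0.57). The day 0 call was lost without any 1 of the 4 libraries compared (adjusted p = 0.0635 to 0.124), as was the TOM change (adjusted p up to 0.215 without TOM day 2 library 1). The difference of the 2 changes was -0.92 (standard error 0.31, adjusted p = 0.17).

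Ddx50 is the paralogue of Ddx21 and its neighbour. Ddx21 lies at chr10:62580251-62602281 and Ddx50 at chr10:62615895-62651218 of GRCm38, both on the minus strand, 13613 bases apart with no protein-coding gene between them, and 61.8% of their aligned residues are identical. Ddx50 was at 16.8 and 16.1 FPKM in TOM at day 0, 18.9 and 18.0 at day 2, and 11.9 and 10.3, then 8.50 and 8.80, in the libraries labelled Ddx6-KO. Its libraries did not overlap between the lines at either day. The log2 difference was -0.53 at day 0 (standard error 0.15, adjusted p = 0.0669) and -1.01 at day 2 (standard error 0.15, adjusted p = 0.00544).

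Ddx51 helps to form the 3′ end of 28S ribosomal RNA, and it was the only member called over induction in both lines. Its level went from 6.42 and 6.20 to 16.1 and 19.6 FPKM in TOM, and from 3.38 and 2.80 to 6.08 and 5.84 FPKM in the libraries labelled Ddx6-KO. Day 2 of the line labelled Ddx6-KO thus lay just under day 0 of TOM. The rise was 1.36 in TOM (standard error 0.18, adjusted p = 0.0051) and 0.77 in the libraries labelled Ddx6-KO (standard error 0.18, adjusted p = 0.0415), and the difference of the changes was -0.59 (adjusted p = 0.287). The second rise lost its call without any 1 of the 8 libraries (adjusted p = 0.0589 to 0.214), with TPM rescaling and with the protein-coding sum. Between the lines the log2 difference was -0.84 at day 0 (adjusted p = 0.029) and -1.43 at day 2 (standard error 0.18, adjusted p = 0.00318). The day 0 call was lost without any 1 of the libraries compared (adjusted p up to 0.177 without day 0 library 2 labelled Ddx6-KO).

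Ddx49, a helicase of early ribosomal RNA processing, was at 16.2 and 16.4 FPKM in TOM at day 2 against 5.63 and 7.63 in the libraries labelled Ddx6-KO (log2 difference -1.19, standard error 0.23, adjusted p = 0.0146). Ddx54, a nucleolar helicase of the large subunit, was at 11.7 and 11.2 against 5.64 and 7.41 FPKM (-0.74, standard error 0.21, adjusted p = 0.0455). Both lines were closer at day 0, with 13.2 and 13.2 against 9.14 and 14.3 FPKM for Ddx49. Ddx54 was then at 6.98 and 5.24 against 8.04 and 7.52 FPKM. Its day 0 log2 difference of 0.31 lay on the other side of 0 and was not called. Exons of Ddx49 share 874 bases with Homer3 and those of Ddx54 share 869 bases with Gm43579, each on the opposite strand, and since the strand setting of the FPKM step is not given these pairs cannot be told apart. Without TOM day 2 library 1 or 2, or day 2 library 1 labelled Ddx6-KO, neither gene was called (Ddx49 adjusted p = 0.0629 to 0.0698, Ddx54 0.13 to 0.162), and Ddx54 also lost its call without either day 0 library labelled Ddx6-KO (0.0802 to 0.081).

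Ddx24, which binds nucleolar and p53-linked proteins, was the highest of the group. It was at 37.7 and 37.8 FPKM in TOM at day 0 and 25.5 and 25.9 at day 2, against 21.3 and 17.7, then 18.6 and 15.8, in the libraries labelled Ddx6-KO. The 2 libraries of TOM agreed closely at each day, and the lines did not overlap at either. The log2 difference was -0.93 at day 0 (standard error 0.15, adjusted p = 0.0113) and -0.56 at day 2 (adjusted p = 0.0444). The day 0 call was lost without TOM day 0 library 1 (adjusted p = 0.055) or day 0 library 2 labelled Ddx6-KO (0.0962) and with the protein-coding sum (0.101), and the day 2 call without any 1 of the 8 libraries (0.0586 to 0.147).

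Ddx47 was the second highest and differed least, with 13.7 to 18.9 FPKM over all libraries. Ddx55, which acts on the large subunit, was at 2.65 and 1.29 FPKM at day 0 and at 5.65 and 4.91 at day 2 in the line labelled Ddx6-KO, beside 4.41 to 6.35 in TOM. Its rise of 1.12 (standard error 0.28, adjusted p = 0.049) lost its call without any 1 of the 8 libraries (0.0648 to 0.239) and under TPM, quantile and protein-coding sum scaling.

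**Figure D2:**
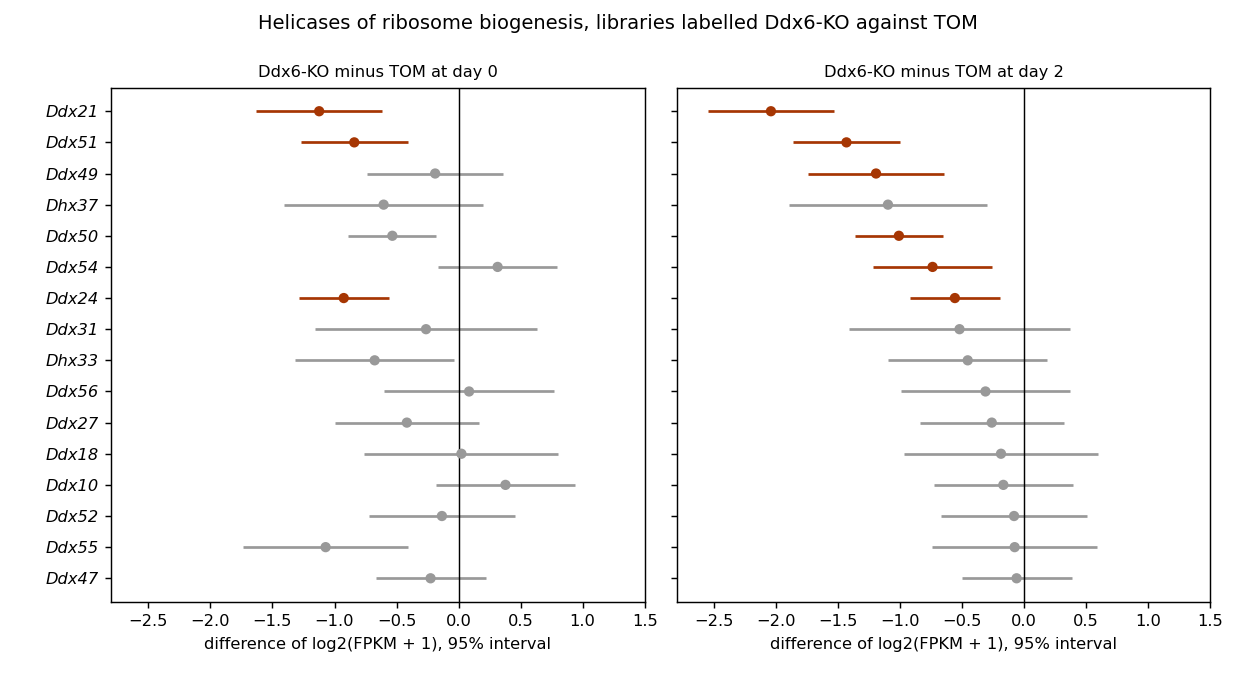
Difference of log2(FPKM + 1) between the libraries labelled Ddx6-KO and TOM for the 16 helicases of ribosome biogenesis, at day 0 on the left and day 2 on the right, with 95% intervals from limma. Coloured points passed the threshold. At day 2 all 16 points lie below 0, from -2.04 for Ddx21 to -0.06 for Ddx47, and at day 0 there are 12 below 0.

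Other ribosome biogenesis factors were read from a list of 25 genes without helicases, of which 24 were tested. At day 2, 22 were below 0 between the lines, beside 6798 of the 15811 genes, with a median of -0.64. Of the 24, 8 were called lower, beside 8.58% of all genes, and none higher (none at an unadjusted p under 0.05 either). Gnl3, a nucleolar GTPase, was at 22.9 and 22.6 FPKM in TOM against 8.56 and 8.67 (log2 difference -1.30, adjusted p = 0.00189), and Bop1, of the PeBoW complex, at 10.3 and 11.1 against 4.34 and 5.26 (-1.02, adjusted p = 0.0115). At day 0, 3 were called lower and Myc, a transcription factor that drives this programme, was called higher, with 2.46 and 5.55 FPKM in TOM and 17.003 and 15.1 in the line labelled Ddx6-KO. Cell cycle genes moved beside them, with 5 of 8 called lower and Top2a called higher at day 2 and a median of -1.14. The 8 adipocyte markers were all called lower at day 2, and summed to 684.5 and 675.1 FPKM in TOM and to 27.6 and 21.3 FPKM in the libraries labelled Ddx6-KO. They already differed at day 0, with sums of 237.7 and 211.3 FPKM against 41.3 and 44.7. Lpl (log2 difference -3.91) and Pparg (-1.97) were called lower then. The part of these lists in the helicase differences was not tested.

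Ddx60, an interferon-induced helicase that assists the sensors of viral RNA, varied more than any other tested member. It was at 21.5 and 20.1 FPKM in TOM at day 0 and at 3.46 and 2.32 at day 2, against 2.29 and 0.979, then 1.45 and 0.401, in the libraries labelled Ddx6-KO. High values were seen in TOM at day 0 and low ones in the other 3 groups. The lowest value corresponds to about 9 fragments. Between the lines at day 0 the log2 difference was -3.10 (standard error 0.36, adjusted p = 0.00304), and mean FPKM in TOM was 12.8 times that of the libraries labelled Ddx6-KO. In TOM it fell by 2.50 over induction (standard error 0.36, adjusted p = 0.00655), a call lost without TOM day 0 library 1 (adjusted p = 0.0546) or TOM day 2 library 2 (0.0503). In the libraries labelled Ddx6-KO the change was -0.46 (95% interval -1.31 to 0.39), the groups overlapped, and the difference of the changes was 2.04 (standard error 0.51, adjusted p = 0.0789). At day 2 the log2 difference between the lines was -1.05 (adjusted p = 0.0839).

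The gene lies at chr8:61928087-62038244 of GRCm38 on the plus strand. Its promoter is shown because it holds 2 matches to the interferon element, which is GAAA, any 2 bases and GAAA, searched on both strands. This motif occurs in 3.44% of 32851 RefSeq promoters on GRCm38.p6, taken from 250 bases before to 50 after the start. It occurs in 3 of the 57 promoters of the 46 members that have one, and these belong to Ddx60 and Ddx49. The windows below have 30 bases, read 5′ to 3′ on the strand of the gene, with the motif in capitals.
Ddx60, chr8:61928024-61928053, plus strand, motif from position -53: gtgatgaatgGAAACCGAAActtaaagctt
Ddx60, chr8:61928058-61928087, plus strand, motif from position -19: gagcagaagaGAAACCGAAActatccttca
Ddx49, chr8:70302679-70302708, minus strand, motif from position -227: cagaggcgatGAAAAAGAAAccttgcaaag
Both Ddx60 matches have the same 10 bases and lie close to the start, whereas that of Ddx49 is far upstream and A-rich. Ddx49 did not share the day 0 pattern of Ddx60. A match is a description of letters, and binding was not measured. The E-box CACGTG, searched in the same way, occurs in 7.15% of promoters and in 7 of the 57 promoters of members, which belong to 7 genes. Among these, Ddx5 and Ddx4 were called in a comparison, beside 16 of the 47 tested members.

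A list of 7 interferon response genes was lower in the same groups as Ddx60 at day 0. All 7 were called lower over induction in TOM (median change -4.80), and 6 were called lower between the lines at day 0 (median -2.29). Mx1, an antiviral GTPase, was at 36.9 and 33.3 FPKM in TOM at day 0 and at 1.06 and 0.955 in the libraries labelled Ddx6-KO (log2 difference -4.17, adjusted p = 0.000174). Ifit1, which binds foreign RNA, was at 98.6 and 100.3 against 18.7 and 12.6 FPKM (-2.62, adjusted p = 0.00358). Over induction in the line labelled Ddx6-KO, 6 of the 7 were called lower and Ddx60 was not. Among them was Ifit3, from 21.6 and 13.8 to 1.69 and 1.24 FPKM (-2.90, adjusted p = 0.00127). Mx1 was not called there either, at 1.06 and 0.955 FPKM at day 0 and 1.06 and 0.620 at day 2. Ddx60 also began low in that line, at 2.29 and 0.979 FPKM, so neither gene could fall far on this scale. Whether this part of the pattern differs between Ddx60 and the list was not tested. At day 2, Irf7 alone was called lower (-1.47, adjusted p = 0.0383) and the other 6 had differences above 0.

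**Figure D3:**
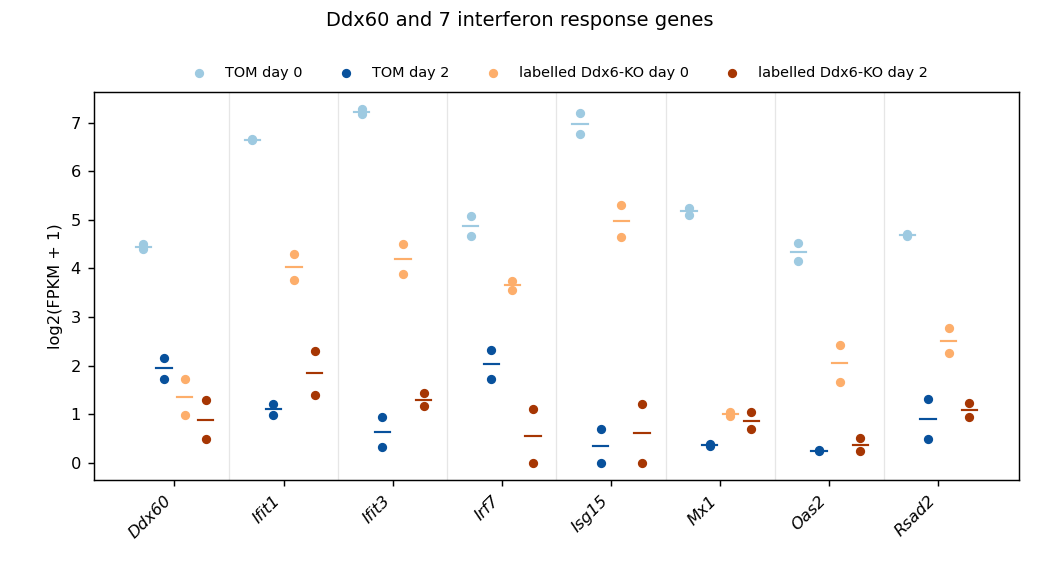
log2(FPKM + 1) of Ddx60 and the 7 interferon response genes by library, with the mean of the 2 libraries of a group as a bar. Ddx60 and the 7 genes are highest in TOM at day 0, with Ddx60 at 21.5 and 20.1 FPKM, and lie lower in TOM at day 2.

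Of the 13 helicases of splicing and the spliceosome, 3 were called lower between the lines at day 2 (beside 8.58% of all genes), 1 at day 0 (4.81%), and 2 rose in the libraries labelled Ddx6-KO over induction (4.8%). The medians between the lines were -0.31 at day 0 and -0.04 at day 2. Ddx39b, which joins splicing to export as part of the TREX complex, was at 47.9 and 48.3 FPKM in TOM at day 0 and 63.0 and 62.4 at day 2, against 24.2 and 27.6, then 45.5 and 41.0, in the libraries labelled Ddx6-KO. The lines did not overlap at either day. The log2 difference was -0.87 at day 0 (standard error 0.13, adjusted p = 0.00813), which lost its call without day 0 library 1 labelled Ddx6-KO (0.0769) or with the protein-coding sum (0.0932), and -0.53 at day 2 (adjusted p = 0.0338), which lost it without any 1 of the 4 libraries compared or of the day 0 libraries labelled Ddx6-KO (0.0571 to 0.126). Its rise of 0.72 in the libraries labelled Ddx6-KO (standard error 0.13, adjusted p = 0.0169) was lost without either day 0 library (0.0686 and 0.133) or day 2 library 1 of that line (0.081), and under TPM and protein-coding sum scaling.

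Ddx5 acts in splicing and as a partner of transcription factors. In the line labelled Ddx6-KO it went from 58.0 and 52.8 to 120 and 102 FPKM, beside 85.8 and 76.9 to 116 and 99.1 in TOM, so the lines overlapped at day 2 and not at day 0. The rise of 0.99 (standard error 0.15, adjusted p = 0.00778) was lost without day 0 library 1 (0.0524) or library 2 (0.0726) of that line and under TPM and protein-coding sum scaling. Its paralogue Ddx17, with 72.6% identical residues, stayed between 25.4 and 39.4 FPKM and was called in no comparison.

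Ddx41 and Ddx23 were the other lower calls of this group at day 2. Ddx41, a spliceosomal helicase also studied as a DNA sensor, was at 9.53 and 10.1 FPKM in TOM and at 5.25 and 5.19 in the libraries labelled Ddx6-KO (log2 difference -0.79, standard error 0.17, adjusted p = 0.0176). Ddx23, of the U5 particle, was at 29.6 and 21.9 against 16.3 and 15.3 FPKM (-0.66, standard error 0.18, adjusted p = 0.0415). Ddx41 lost its call without TOM day 2 library 1 or 2 or day 2 library 1 labelled Ddx6-KO (0.0573 to 0.0837), and Ddx23 without any library but TOM day 2 library 2 (0.055 to 0.187). Ddx41 shares 467 exon bases with the antisense gene Gm46416. Dhx15, which takes spent spliceosomes apart, was at 36.4 to 52.4 FPKM and was not called.

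Among 19 core spliceosome proteins without helicases, 2 were called lower at day 2, beside 8.58% of all genes. None was called higher (1 at an unadjusted p under 0.05), and the median was -0.32. At day 0 none was called, with 8 lower and 1 higher at an unadjusted p under 0.05, beside 1830 lower and 2282 higher of the 15811 genes. Of 13 exon junction and TREX partners of Ddx39b and of the related Eif4a3, Alyref alone was called between the lines, lower at day 0 (log2 difference -1.07, adjusted p = 0.0228), and Thoc2 rose over induction in both lines (0.87 in TOM, adjusted p = 0.0161, and 0.67, adjusted p = 0.0347).

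The helicases of mRNA export, translation and decay had 9 tested members and 2 lower calls at day 2, beside 8.58% of all genes. Ddx3x was at 76.5 and 85.0 FPKM in TOM at day 0 and 155 and 121 at day 2, against 60.2 and 69.2, then 94.4 and 77.4, in the libraries labelled Ddx6-KO. The lines did not overlap at either day. It rose by 0.76 in TOM (standard error 0.18, adjusted p = 0.0456), and its log2 difference at day 2 was -0.68 (standard error 0.18, adjusted p = 0.0361). Each call was lost without any 1 of the libraries compared or of the day 0 libraries labelled Ddx6-KO (0.0656 to 0.229 for the rise, 0.0533 to 0.171 for the difference), and the rise under each of the 4 other scalings.

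Ddx1, which belongs to the tRNA ligase complex, was at 39.8 and 34.9 FPKM in TOM at day 2 and at 22.9 and 22.4 in the libraries labelled Ddx6-KO. The difference of -0.69 (standard error 0.16, adjusted p = 0.0227) lost its call without any 1 of these 4 libraries (0.0629 to 0.115). The near-identical pairs Ddx19a and Ddx19b (95.4% identical residues) and Ddx39 and Ddx39b (91.1%) could share reads, and the sources used here do not say how such reads were split.

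Of 17 RNA helicases with other names, 5 were called lower and 1 higher at day 0, beside 4.81% and 6.55% of all genes. At day 2, 2 were called lower and 1 higher, beside 8.58% and 10.4%. Their median was -0.46 at both days, with 11 and 12 below 0, beside -0.23 and -0.26 for the members, and the difference between the lists was not tested. Znfx1, an antiviral helicase, was at 26.8 and 24.9 FPKM in TOM at day 0 against 10.999 and 12.3 (log2 difference -1.09, adjusted p = 0.0077), and it fell over induction in both lines (-1.41 and -0.79, adjusted p = 0.00259 and 0.0254). Upf1, of nonsense-mediated decay, and Eif4a2 were called lower at both days. At day 2 their log2 differences were -0.79 (adjusted p = 0.0173) and -0.48 (adjusted p = 0.0467). Ythdc2, known for its part in meiosis, was higher at both days, with 1.54 and 1.39 FPKM against 5.30 and 3.66 at day 0 (1.14, adjusted p = 0.0272). A list of 31 helicase cofactors held genes with a G-patch or MIF4G domain, and also Eif4b, Eif4h and the translation inhibitor Pdcd4. Its genes were called in both directions, with 1 higher and 4 lower at day 0 and 2 of each at day 2. Over induction none of them was called in TOM (2 higher and 1 lower at an unadjusted p under 0.05), and Pdcd4 rose in the line labelled Ddx6-KO (1.87, adjusted p = 0.000453).

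Of 13 P-body partners of Ddx6, 1 was called between the lines at day 0 and 2 at day 2, beside 11.4% and 18.9% of all genes, with medians of 0.42 and 0.09. Cnot1, also on the list of cofactors and the scaffold of the deadenylase complex whose MIF4G domain binds Ddx6, was higher between the lines at both days, with 11.1 and 13.6 FPKM in TOM and 24.9 and 22.3 in the libraries labelled Ddx6-KO at day 0 (log2 difference 0.89, adjusted p = 0.0184). Lsm1 was lower at day 2 (-1.04, adjusted p = 0.0338). None was called over induction in TOM or in the line labelled Ddx6-KO (1 and 0 at an unadjusted p under 0.05).

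Dhx57, a little-known relative of Dhx36, was the only member called higher between the lines in the fit to all 8 libraries. Its level was 4.76 and 4.43 FPKM in TOM at day 0 and 3.25 and 3.21 at day 2, against 5.58 and 5.36, then 8.46 and 7.20. The lines did not overlap at either day. The change over induction was -0.40 in TOM (adjusted p = 0.282) and 0.45 in the other line (0.184), and neither was called. The log2 difference was 0.21 at day 0 (adjusted p = 0.546) and 1.06 at day 2 (standard error 0.18, adjusted p = 0.00968). The day 2 call held without any 1 library, narrowly so without TOM day 2 library 1 (adjusted p = 0.05 after rounding). It was lost with the protein-coding sum (0.216) and in a fit to the compared libraries alone (0.0663). Exons of Dhx57 share 255 bases with the antisense gene AC132910.1 and 135 with Morn2. Dhx40, the highest of this set of little-known members, stayed between 9.05 and 13.3 FPKM.

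The mitochondrial helicases Dhx30 and Ddx28, both needed for the mitochondrial ribosome, were not called. Dhx30 was at 11.5 and 19.2 FPKM in TOM at day 0 and 9.74 and 10.2 at day 2, against 11.7 and 8.50, then 13.8 and 19.0. Ddx28 ranged from 2.63 to 6.46 FPKM. Ddx4, the Vasa helicase of germ cells, was at 2.33 and 1.97 FPKM in TOM at day 2 against 0.514 and 0.452 (log2 difference -1.09, standard error 0.27, adjusted p = 0.0332). These low values correspond to about 16 and 15 fragments in TOM and to about 2 and 3 in the libraries labelled Ddx6-KO, and the call was lost without any 1 of the 8 libraries (0.05 to 0.145).

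The change over induction was compared between the lines as the difference of the 2 changes. No member passed the threshold with limma, beside 4.19% of all genes. At an unadjusted p under 0.05 limma gave 9 of the 47 members, 5 above 0 and 4 below, beside 1478 above and 1438 below of the 15811 genes. Ddx49, Ddx50 and Ddx54 had both day 2 libraries above both day 0 libraries in TOM and below them in the line labelled Ddx6-KO, and Dhx30 and Dhx57 the reverse. These 5 are 10.6% of the members, beside 9.52% of all genes. The differences of the changes were -1.05 for Ddx54 (adjusted p = 0.105), 0.85 for Dhx57 (0.14), -1.005 for Ddx49 (0.164), 1.18 for Dhx30 (0.168) and -0.48 for Ddx50 (0.295). The largest negative value belonged to Dhx32, a little-known member, at -1.51 (standard error 0.49, adjusted p = 0.155). Its level was 2.37 and 2.17 FPKM at day 0 and 2.35 and 4.70 at day 2 in TOM, where the days overlapped, and 6.35 and 6.71, then 3.59 and 1.70, in the line labelled Ddx6-KO. A single member was called without day 2 library 2 labelled Ddx6-KO.

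**Figure D4:**
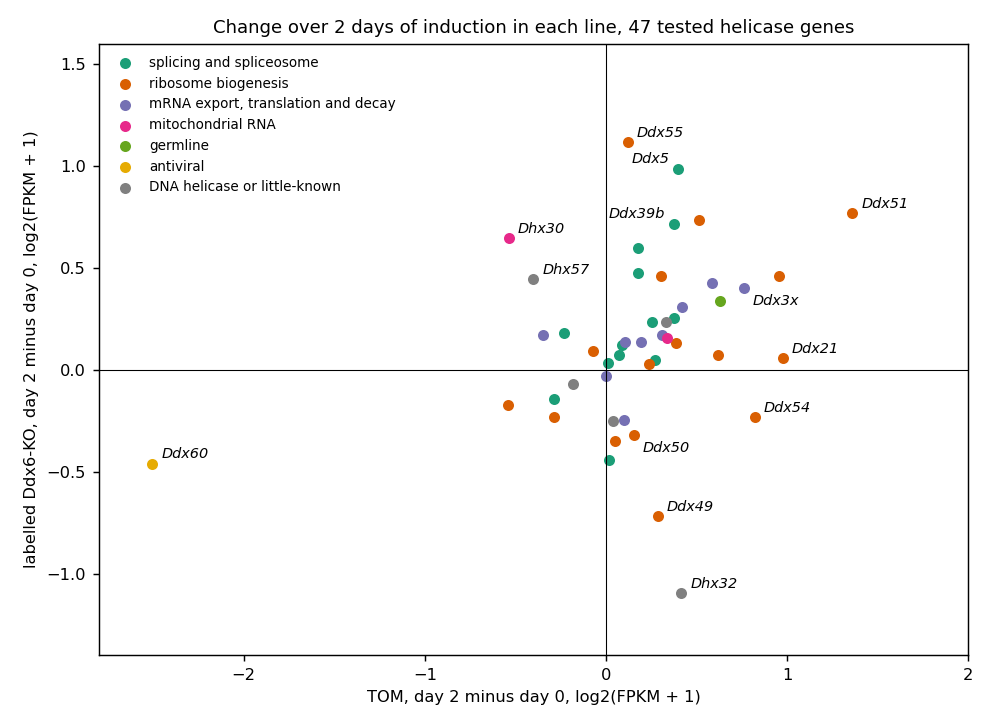
Change of log2(FPKM + 1) from day 0 to day 2 in TOM on the x axis and in the libraries labelled Ddx6-KO on the y axis for the 47 tested helicase genes, coloured by role. Ddx51 (1.36 and 0.77) lies high on both axes, Ddx60 fell by 2.50 in TOM, and Ddx49 and Dhx57 lie in the quadrants where the 2 changes differ in sign. Under TPM rescaling the median change in the libraries labelled Ddx6-KO was -0.19 in place of 0.14.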

How the data were processed

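Total RNA was made into libraries with a stranded total RNA kit, and the authors deposited 1 table of FPKM per gene, computed with Cufflinks 2.2.1 after TopHat2 2.1.0 alignment to GRCm38, per the labels. The annotation release and the strand setting are not given in the sources used here. Symbols, coordinates and coding sequences came from GENCODE M21.

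All 8 libraries were used, and 0 columns of values were left out. Library numbers follow the columns, since they match the numbers of the labels only in part. Values entered as log2(FPKM + 1) after dropping genes that did not reach 1 FPKM in 2 or more libraries. The limma package (3.58.1, under R 4.3.3) estimated 1 mean for each group with a variance trend and gave 5 comparisons, with Benjamini-Hochberg adjustment within each. The fit was tested on simulated data. The spacing of the lowest values of genes with 1 transcript gave approximate fragments, with 90.8% to 94.3% of these values within 0.05 of a whole fragment.

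Named were every member called, the 2 highest of each role group, the 5 most like Ddx6, members under 1 FPKM and up to 3 genes of each other list per comparison. Dhx15, Dhx32, Dhx37, Ddx17, Ddx19a, Ddx19b and sums over markers were named after their values were seen, as were values of a named gene in other comparisons. The members, role groups and lists were chosen with earlier results of these data known. Likeness used local alignments of the longest open reading frame of GENCODE transcripts with Biopython 1.88, in place of the RefSeq proteins first planned. Alternatives were pseudocounts of 0.1 and 5, no filter or one at 5 FPKM, scaling to the protein-coding sum, TPM, median-ratio and quantile scaling, no trend, robust moderation, the libraries of the comparison alone, a ratio of mean FPKM of at least 2 or at most 0.5, and leaving out each library. Where 1 library was left out, its partner was given the spread of the remaining groups. Promoters were RefSeq windows of 300 bases. 1 item of the lists is not reported here.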

Additional observations from a re-analysis of the deposited data

Results flagged for a closer look

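Among the genes of the comparison and marker lists, 13 had a change over induction that differed between the lines by limma's test of the difference of the changes, and no helicase member did. For Mx1 the difference (change of the line labelled Ddx6-KO less the TOM change) was 4.66 on the log2(FPKM + 1) scale (standard error 0.32, adjusted p = 0.000784). For Ifit3 it was 3.69 (adjusted p = 0.00405), for Ifit1 3.36 (adjusted p = 0.00964), for Oas2 2.41 (adjusted p = 0.0288) and for Rsad2 2.37 (adjusted p = 0.0339). Mx1 went from 36.9 and 33.3 to 0.309 and 0.279 FPKM in TOM, and from 1.06 and 0.955 to 1.06 and 0.620 in the other line. All 5 genes were called lower in the line labelled Ddx6-KO at day 0, and at day 2 they lay at 0.181 to 3.94 FPKM in both lines. These differences thus go with unequal levels at day 0. Among adipocyte markers the difference of the changes was -6.63 for Fabp4 (adjusted p = 0.000229), -3.85 for Cidec (0.00685), -1.98 for Plin1 (0.0439) and 1.22 for Lpl (0.0281). Pdgfra, a preadipocyte marker, gave 1.23 (adjusted p = 0.0111). Top2a, a topoisomerase of dividing cells, gave 1.39 (adjusted p = 0.0318). Pdcd4, a translation inhibitor that binds the helicase Eif4a1, gave 1.54 (adjusted p = 0.0085), with 10.4 and 9.99 FPKM at day 0 and 40.8 and 39.2 at day 2 in the line labelled Ddx6-KO and 33.4 to 46.6 in TOM. Myc gave -2.21 (adjusted p = 0.0267), with 2.46 and 5.55 FPKM at day 0 and 19.8 and 19.3 at day 2 in TOM and 14.7 to 17.003 in the line labelled Ddx6-KO.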

How the results depend on the processing

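The count of members called was 4 over induction in TOM, 4 in the libraries labelled Ddx6-KO, 5 between the lines at day 0, 13 at day 2 and 0 for the difference of the changes. Leaving out 1 library gave 1 to 4, 0 to 2, 2 to 6, 4 to 10 and 0 to 1. In TOM the count was 2 with no filter, TPM, median-ratio or quantile scaling or no trend, and 1 in the fit to the libraries compared. In the line labelled Ddx6-KO it was 2 with a pseudocount of 5 or no filter, and 1 with the protein-coding sum, no trend or the libraries compared. At day 0 it was 8 with a filter at 5 FPKM or quantile scaling and 2 with the protein-coding sum. At day 2 it was 7 with no filter or no trend, 3 with the libraries compared and 8 by the ratio of means. For the difference of the changes it was 1 with a pseudocount of 5 or the protein-coding sum. The cause was not tested. A replicate block by column number, chosen after seeing the data, gave 2, 2, 5, 9 and 1. Within-group differences of equal numbers correlated at -0.096 to 0.067, so the numbers do not pair the libraries, and the planned replicate block by label number was not run since the columns carry those numbers only in part. No call of a member changed sign. Of 26 calls, 6 held without any 1 library, 25 with the filter at 5 FPKM, where the other gene was not tested, and 8 in the fit to the libraries compared. Depth was lowest in the libraries of day 2, at about 1500000 to 2700000 fragments, which limits members near 1 FPKM such as Ddx4.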
